A study of Mus with 16 samples.

Results

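T (brachyury) and Klf4 were followed through 16 bulk RNA-seq libraries of epiblast stem cells. T is known as a marker of the primitive streak and of primed cultures, and Klf4 as one of the naive state. The members are 2 of the 116747 transcripts that each table lists, 1 transcript per gene: ENSMUST00000074667.9, of 2046 bases, for T and ENSMUST00000107619.3, of 3029 bases, for Klf4. They were chosen by their Ensembl transcript IDs as known markers. The tables carry no gene names, and no table used here pairs these IDs with symbols, so both names rest on prior knowledge of the IDs. RefSeq's annotation of GRCm38.p6 places the protein-coding gene T at chr17:8434423-8442496 and the protein-coding gene Klf4 at chr4:55527137-55532475. The submitters' processing notes name mm10, the same assembly under its browser name. The release of the transcript set is not stated and may belong to another assembly, so these are positions of the genes in RefSeq, not of the transcripts measured. The values are of these transcripts, and other transcripts of the genes were not identified here.

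The cells are F1 hybrid lines from crosses of C57Bl/6J with wild-derived inbred strains, named CastB6, MolfB6, PwkB6 and SpretB6 in the labels, with 4 libraries each. Every library therefore carries a C57Bl/6J genome, and the crosses differ in the other parent. Each library has a number in its title (1, 3, 5 and 6, or 1, 2, 3 and 6 in MolfB6), which is used here as its name, and the labels do not say whether a number is a cell line, a clone or a culture. Growth, treatment and extraction are described in the labels only by reference to earlier work. The p-values thus judge differences between crosses against the spread between libraries, which may be partly technical. Variation between lines and between preparations of 1 line cannot be told apart. RNA was ribodepleted total RNA from whole cultures, and alleles are not separated in the tables.

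Epiblast stem cells are derived from the epiblast after implantation and represent primed pluripotency, which is maintained by FGF and activin signalling. T encodes a T-box transcription factor of the primitive streak, nascent mesoderm and notochord. It responds to Wnt signalling, and epiblast stem cell cultures are known to hold T-positive and T-negative cells side by side. Klf4 encodes a zinc finger transcription factor of the Krüppel-like family and is one of the reprogramming factors. It belongs to the naive network of embryonic stem cells, where LIF acting through STAT3 sustains it, and it is turned down as cells leave the naive state. In a bulk library, fewer cells with a transcript and less of it per cell cannot be told apart.

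The T transcript was present at a moderate level and the Klf4 transcript at a low level in all 16 libraries. T stood at 27.2 ± 10.0 TPM (SD, n = 16), with a lowest value of 15.4, a median of 26.9 and a highest of 51.4 TPM. It ranked between place 2423 and place 6655 by TPM in its library. Klf4 stood at 1.23 ± 0.882 TPM (SD, n = 16), with a lowest value of 0.313, a median of 1.01 and a highest of 3.98 TPM. Its rank lay between 19415 and 44122, so 62.2% to 83.4% of the listed transcripts were lower in TPM, many of them at 0. TPM is scaled for length, so both levels can be compared: T exceeded Klf4 in every library, by a median of 23.5-fold and a range of 5.42-fold to 69.5-fold.

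Library totals of 42596559 to 72364991 estimated counts put 1376 to 3986 reads on T and 40.04 to 532 reads on Klf4. If reads alone were the source of error, T would carry a mean counting error of 2.05% and Klf4 one of 8.59%. The estimates for Klf4 were whole numbers, within 0.001, in 8 of 16 libraries, and those for T in 0 of 16. A whole estimate is what a transcript with no divided reads gives, so some T reads were divided with similar transcripts in every library. The error of that division is not in the tables.

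**Figure D1:**
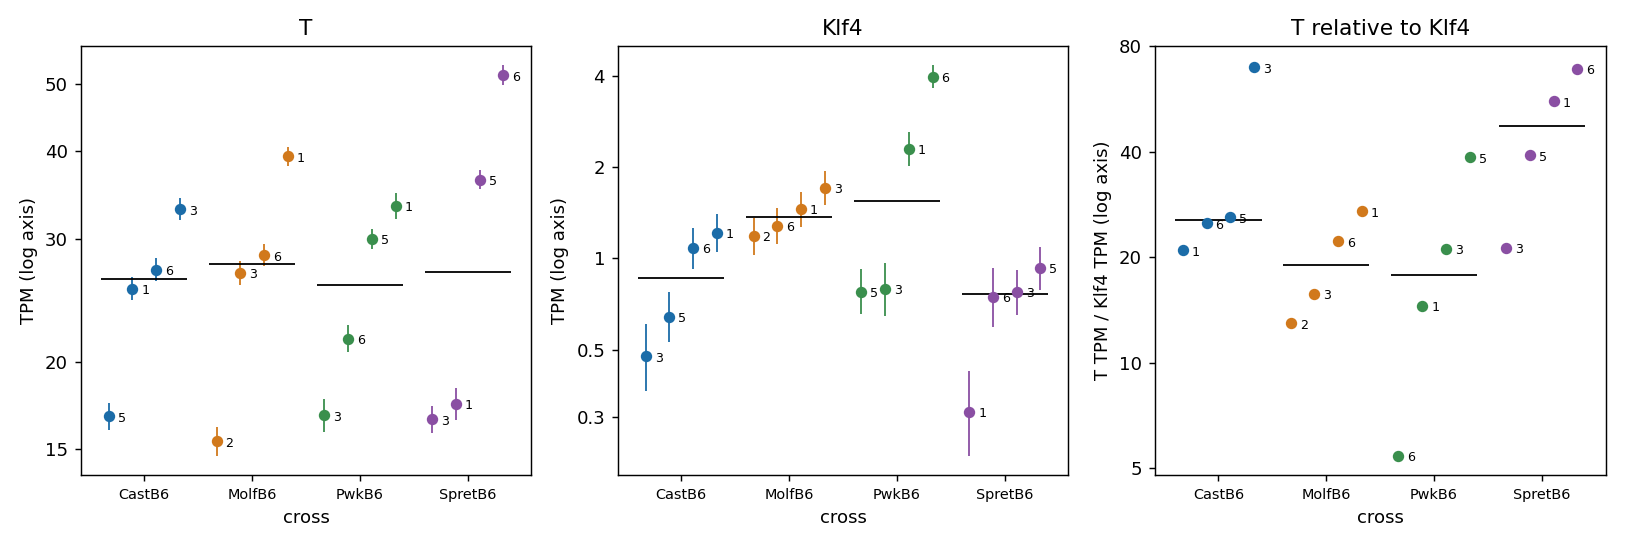
TPM of T and of Klf4, and the ratio of T to Klf4 TPM, in each of the 16 libraries (points, labelled with the library number and ordered by value within a cross; all y axes are log axes). Vertical lines are 95% Poisson intervals of the reads and horizontal lines the median of the 4 libraries of a cross. The T ranges of the 4 crosses overlap, with the widest in SpretB6 (16.5 to 51.4 TPM), while Klf4 is highest in PwkB6 6 (3.98 TPM) and lowest in SpretB6 1 (0.313 TPM).

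In CastB6, T stood at 25.4 TPM in library 1, 33.1 in library 3, 16.7 in library 5 and 27.1 in library 6. In MolfB6 it stood at 39.4 in library 1, 15.4 in library 2, 26.8 in library 3 and 28.4 TPM in library 6. Each of these crosses had 1 low library, CastB6 5 and MolfB6 2, and MolfB6 also had 1 high one. In PwkB6, T stood at 33.4 TPM in library 1, 16.7 in library 3, 29.96 in library 5 and 21.6 in library 6. In SpretB6 it stood at 17.4 in library 1, 16.5 in library 3, 36.4 in library 5 and 51.4 TPM in library 6. SpretB6 thus held both the highest T library of the 16 and 2 of the 5 lowest, and the ranges of all 4 crosses overlapped.

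T did not differ detectably among the crosses. By mean level the order was SpretB6 at 30.4 ± 16.7, MolfB6 at 27.5 ± 9.82, CastB6 at 25.6 ± 6.76 and PwkB6 at 25.4 ± 7.62 TPM (SD, n = 4 each), and no neighbours in that order lay apart by more than their spread. By median, MolfB6 at 27.6 TPM came before SpretB6 at 26.9. Without SpretB6 6 the SpretB6 mean was 23.5 ± 11.2 TPM (SD, n = 3), the lowest of the 4. The joint test over the 4 crosses gave an adjusted p of 0.904 (edgeR quasi-likelihood F test, Benjamini-Hochberg), where 9.73% of the 56721 tested transcripts were called at 0.05. In 84.4% of the tested transcripts the unadjusted p was smaller than the 0.763 of T. Only 5.43% of the variance of T in log2 CPM lay between crosses, against a median of 30.5% over all tested transcripts. In the same of 4 equal classes by mean level the median was 38.7%. The share was lower than that of T in 5.15% of all tested transcripts. These shares are not corrected for the part that groups of 4 give without any difference.

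In T, 0 of the 6 pairs passed the threshold or an unadjusted p of 0.05, a level that 12.0% to 19.1% of all tested transcripts reached, depending on the pair (edgeR). Of all tested transcripts, the pairs of CastB6 called 2.76% with MolfB6, 3.76% with PwkB6 and 6.05% with SpretB6. MolfB6 and PwkB6 gave 1.2%, and SpretB6 gave 5.53% with MolfB6 and 5.5% with PwkB6. The log2 fold change of T between PwkB6 and SpretB6, the largest of the 6, was -0.41 with a 95% interval of -1.22 to 0.40 (edgeR adjusted p = 0.649). Without SpretB6 6 it was 0.032, so its sign rests on that library. For CastB6 against MolfB6 the log2 fold change was 0.00064, with an interval of -0.81 to 0.81. The other 4 pairs lay between -0.18 and 0.23, and their intervals reached from -0.99 to 1.04. These intervals are not adjusted for the number of transcripts tested. With 4 libraries a cross, differences inside them, and some beyond them, could go undetected. The fold changes use TMM scaling, with factors of 0.879 to 1.19, and so need not follow the order of mean TPM.

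Klf4 did not pass the threshold between crosses either, but its levels were less alike. In CastB6, Klf4 stood at 1.22 TPM in library 1, 0.476 in library 3, 0.642 in library 5 and 1.08 in library 6. In MolfB6 it stood at 1.46 in library 1, 1.19 in library 2, 1.71 in library 3 and 1.28 TPM in library 6. The MolfB6 libraries lay close together, and 3 of them were above every CastB6 library. In PwkB6, Klf4 stood at 2.30 TPM in library 1, 0.792 in library 3, 0.778 in library 5 and 3.98 in library 6. In SpretB6 it stood at 0.313 in library 1, 0.776 in library 3, 0.933 in library 5 and 0.747 TPM in library 6. PwkB6 was thus split into 2 libraries above every library of the other crosses and 2 within the range of SpretB6.

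The crosses ordered by mean Klf4 were PwkB6 at 1.96 ± 1.52, MolfB6 at 1.41 ± 0.229, CastB6 at 0.855 ± 0.353 and SpretB6 at 0.692 ± 0.266 TPM (SD, n = 4 each), and the medians gave the same order. Without PwkB6 6, the PwkB6 mean was 1.29 ± 0.874 TPM (SD, n = 3), below that of MolfB6. The joint test gave an unadjusted p of 0.0516 and an adjusted p of 0.212 (edgeR). In 24.3% of the tested transcripts the p was smaller. Of the variance of Klf4 in log2 CPM, 40.4% lay between crosses, again without that correction. The median was 30.5% over all tested transcripts and 32.4% in its class by mean level. The share was lower than that of Klf4 in 65.2% of all tested transcripts.

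The 2 largest Klf4 differences both involved SpretB6. Klf4 in PwkB6 exceeded that in SpretB6 by a log2 fold change of 1.24 ± 0.44 (SE; 95% interval 0.29 to 2.19; edgeR unadjusted p = 0.0145, adjusted p = 0.135), where 5.5% of tested transcripts were called. Their TPM ranges overlapped. With 1 library left out the value ranged from 0.83 without PwkB6 6 (edgeR adjusted p = 0.376) to 1.49 without PwkB6 5 (edgeR adjusted p = 0.066). Klf4 in MolfB6 exceeded that in SpretB6 by a log2 fold change of 1.02 ± 0.44 (SE; 95% interval 0.072 to 1.97; edgeR unadjusted p = 0.0367, adjusted p = 0.247), where 5.53% were called. Here all 4 MolfB6 libraries were above all 4 SpretB6 libraries, as was so, in either direction, for 15.7% of tested transcripts in that pair. Without SpretB6 1 the log2 fold change of Klf4 in that pair was 0.77 (edgeR adjusted p = 0.490). Without SpretB6 5 it was 1.16 (edgeR adjusted p = 0.284), the other end of the values with 1 library left out. In the other 11 of the 12 comparisons, 6 for each transcript, the ranges overlapped. Ranges were apart for 10.6% of tested transcripts in CastB6 against MolfB6, 11.2% in CastB6 against PwkB6, 16.6% in CastB6 against SpretB6, 7.98% in MolfB6 against PwkB6 and 13.9% in PwkB6 against SpretB6.

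The remaining Klf4 pairs were smaller. CastB6 against PwkB6 gave a log2 fold change of -0.86 (interval -1.80 to 0.086; edgeR adjusted p = 0.311) and CastB6 against MolfB6 gave -0.64 (interval -1.58 to 0.30; edgeR adjusted p = 0.611). CastB6 against SpretB6 gave 0.38 (interval -0.56 to 1.32; edgeR adjusted p = 0.757). MolfB6 against PwkB6, neighbours in the order, gave -0.22 (interval -1.15 to 0.72; edgeR adjusted p = 0.932). Of the 12 pair tests of T and Klf4, edgeR called 0 after adjustment, and 2 had an unadjusted p under 0.05, both of Klf4. Over all tested transcripts and the 6 pairs together, 16.5% of tests had an unadjusted p under 0.05, so 2 of 12 is near the background. DESeq2 and limma voom also called 0 of the 12, where they called 8.78% and 4.64% of all tests. The lowest adjusted p of DESeq2 was 0.060, for Klf4 in PwkB6 against SpretB6.

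**Figure D2:**
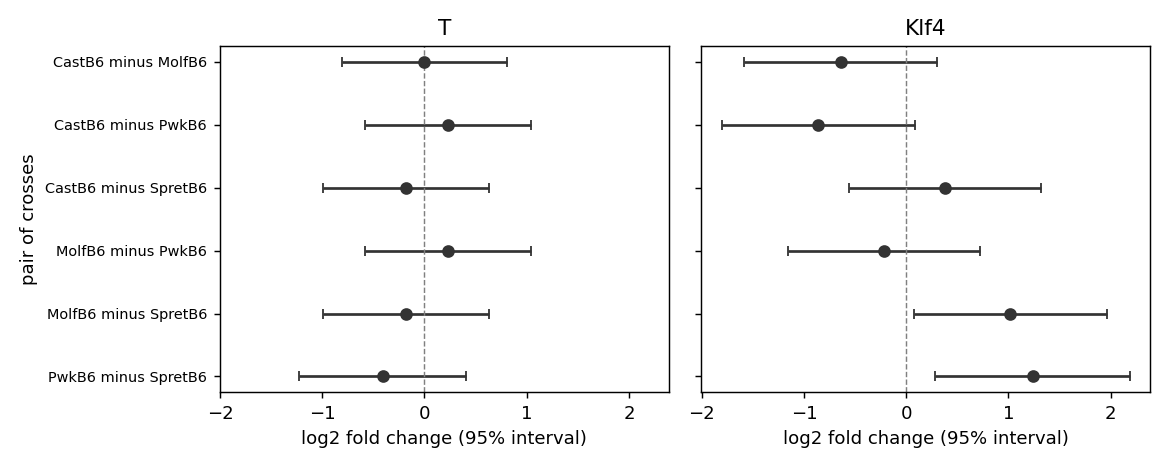
Log2 fold change between each pair of crosses (points; first cross minus second) with its 95% interval (bars) from the edgeR fit over 16 libraries, for T and for Klf4. All 6 intervals of T include 0, while the Klf4 intervals of MolfB6 against SpretB6 and PwkB6 against SpretB6 lie above 0 before adjustment for the 56721 transcripts tested.

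Taking T relative to Klf4 within a library removes the library's scaling. In CastB6 the ratio of T to Klf4 TPM was 20.9 in library 1, 69.5 in library 3, 26.0 in library 5 and 25.0 in library 6, so library 3 stood far above the other 3. It was the library with the most T and the least Klf4 in its cross. In MolfB6 the ratio was 27.0 in library 1, 13.0 in library 2, 15.7 in library 3 and 22.2 in library 6. In PwkB6 it was 14.5 in library 1, 21.1 in library 3, 38.5 in library 5 and 5.42 in library 6. In SpretB6 it was 55.6 in library 1, 21.3 in library 3, 39.1 in library 5 and 68.9 in library 6. The high ratios of SpretB6 had different makeups: library 1 combined low T with the lowest Klf4 of the series, and library 6 combined the highest T with a Klf4 level near the SpretB6 median.

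Mean log2 ratios, with 0.1 TPM added to both transcripts, were highest in SpretB6 at 5.18 ± 0.70, then CastB6 at 4.79 ± 0.72, MolfB6 at 4.13 ± 0.48 and PwkB6 at 3.89 ± 1.12 (SD, n = 4 each). The order of the crosses was the reverse of that of Klf4. Klf4 is the denominator of the ratio, so the order and the ratio tests are not separate from the Klf4 values above. The place of PwkB6 in the order rests on library 6. Without that library, MolfB6 minus PwkB6 turned from 0.24 to -0.25 and PwkB6 minus SpretB6 was -0.80. Differences did not pass the threshold in any of the 6 pairs, and all 6 overlapped. The widest, PwkB6 minus SpretB6, was -1.29 (two-sided exact permutation p = 0.0571, adjusted over the 6 pairs p = 0.257). MolfB6 minus SpretB6 was -1.05 (two-sided exact permutation p = 0.0857, adjusted p = 0.257). The smallest p that 4 against 4 libraries can give is 0.0286, and the adjusted p of a single pair at that value would not pass.

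Between libraries of a cross, T differed far more than its counting error. The highest T library exceeded the lowest by 3.11-fold in SpretB6, 2.56-fold in MolfB6, 1.99-fold in PwkB6 and 1.98-fold in CastB6. In 21 of the 24 pairs of libraries of a cross, the 95% Poisson intervals of T were apart. The coefficient of variation of T TPM was widest in SpretB6 at 54.9%, followed by MolfB6 at 35.7%, PwkB6 at 29.99% and CastB6 at 26.4%, against counting errors of 1.97% to 2.20%. These intervals compare libraries and cover counting error only.

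For its level, T was among the transcripts that varied widely within crosses. Its SD in log2 CPM, pooled over the crosses, was 0.58, and 93.1% of the 14180 tested transcripts in the highest of 4 equal classes by mean level had a smaller one. The median SD there was 0.26. In SpretB6 the SD of T was 0.85 and the share with a smaller SD was 99.1%. That cross also had the lowest median SD of the 4 crosses in this class, 0.15, so a given SD ranks higher there. The shares were 91.0% in MolfB6, 83.7% in PwkB6 and 74.9% in CastB6. The SD of log2 TPM of T was 0.41 in CastB6 and 0.20 without library 5, and 0.56 in MolfB6 and 0.30 without library 2. SpretB6 6, the library highest in T, had a total of 44203863 estimated counts against 54437011 to 72364991 in the other SpretB6 libraries, and the part of depth in its T level was not tested. Without it, the SD of log2 TPM of T in SpretB6 was 0.64, against 0.80 with it.

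**Figure D3:**
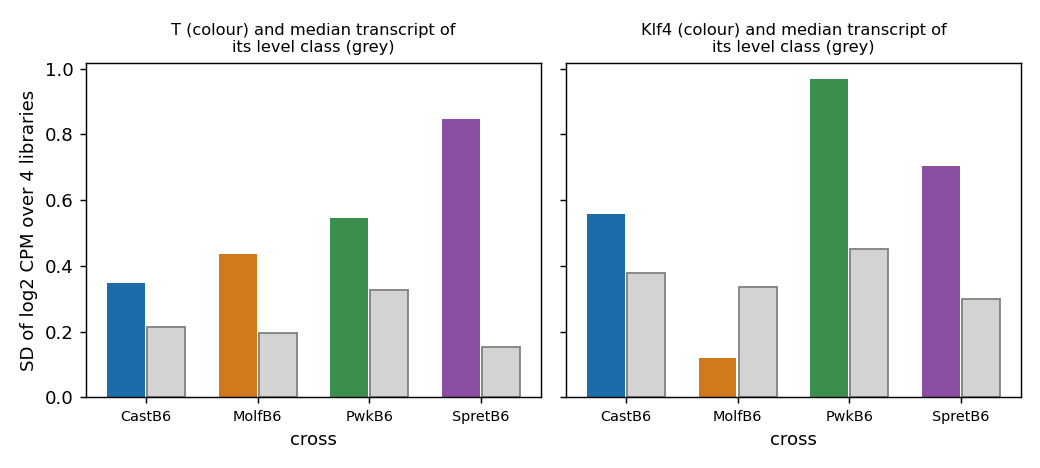
SD of log2 CPM over the 4 libraries of each cross for T and Klf4 (coloured bars) beside the median SD of all tested transcripts in the same of 4 classes by mean level (grey bars). The SD of T in SpretB6 is 0.85 against a median of 0.15, and Klf4 in MolfB6, at 0.12 against 0.34, is the only bar of a member that is below its grey bar; in log2 TPM that SD is 0.21.

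The spread of Klf4 was wide in PwkB6 and narrow in MolfB6, a difference that was not tested. Its highest library exceeded its lowest by 5.11-fold in PwkB6, 2.98-fold in SpretB6, 2.56-fold in CastB6 and 1.44-fold in MolfB6. Poisson intervals were apart in 14 of 24 pairs of libraries of a cross, namely 5 of 6 in PwkB6, 4 of 6 in CastB6, 3 of 6 in SpretB6 and 2 of 6 in MolfB6. The SD in log2 CPM was 0.97 in PwkB6, 0.70 in SpretB6, 0.56 in CastB6 and 0.12 in MolfB6. On the scale of log2 TPM the MolfB6 value was 0.21, and 0.14 without library 3. Of the tested transcripts in its class by level, the second highest, 88.0%, 89.0%, 72.3% and 6.07% had a smaller SD in these crosses. Pooled over the crosses the share was 77.3%, lower than that of T. The SD of Klf4 in SpretB6 rests on library 1, without which the SD of log2 TPM was 0.15 instead of 0.59.

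The PwkB6 libraries high in Klf4 differed in depth. PwkB6 1 had 42596559 estimated counts, the lowest total of the 16 libraries, and PwkB6 6 had 65205262. PwkB6 6 also had reads on 67901 transcripts, more than any other of the 16 libraries, and PwkB6 1 on 64428. The part of these differences in the Klf4 level was not tested. T in the same 2 libraries was 33.4 and 21.6 TPM, the highest and the third highest of PwkB6, so in TPM the Klf4 split of PwkB6 was not mirrored by T. PwkB6 6 had the largest TMM factor of the 16 libraries, 1.19, and on that scale its T level was the lowest of the 16.

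No relation between T and Klf4 was detected among libraries of a cross. With the mean of each cross subtracted from log2(TPM + 0.1), the Pearson correlation between T and Klf4 over 16 libraries was 0.24 (two-sided exact permutation within crosses, p = 0.399) and the Spearman correlation 0.20 (exact permutation p = 0.443). Adjusted over these 2 relations, both p were 0.443. Without MolfB6 2 and SpretB6 6, the libraries farthest out in T, Pearson's r was 0.20 (exact permutation p = 0.573). Single crosses hold 4 libraries each, too few for a correlation of their own. Relative to the cross mean, PwkB6 3, SpretB6 1 and CastB6 5 were among those low in both transcripts, and PwkB6 1 and SpretB6 5 among those high in both. CastB6 3 and PwkB6 5 were high in T and low in Klf4, while PwkB6 6 and SpretB6 3 were low in T and high in Klf4.

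**Figure D4:**
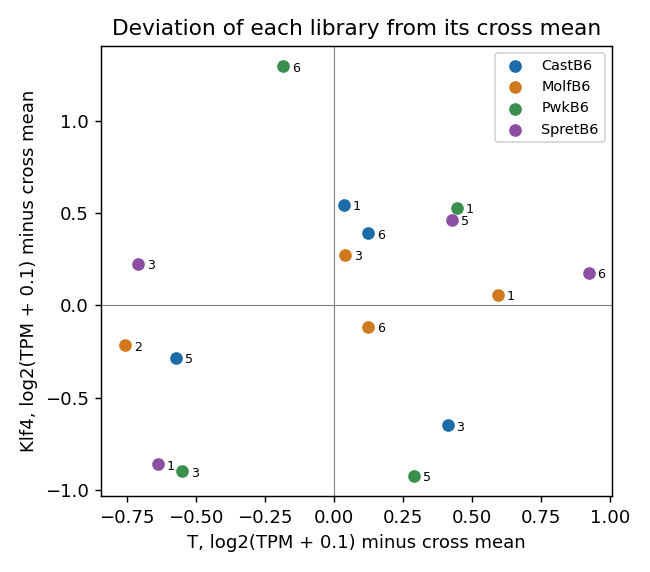
Deviation of each of the 16 libraries from the mean of its cross in log2(TPM + 0.1), for T (x axis) and Klf4 (y axis); points are libraries, coloured by cross and labelled with their number. The points fill all 4 quadrants, with r = 0.24.

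The patterns most like those of T and Klf4 were sought among the 31741 other tested transcripts with a mean of at least 1 CPM, by Pearson correlation of log2 CPM over the 16 libraries. They are given as a description without a test, since each is the top of many. For T these were ENSMUST00000177118.2, with r = 0.85 and a Spearman correlation of 0.85, and ENSMUST00000226303.2, with r = 0.79 and a Spearman correlation of 0.65. The first ranged from 5.003 TPM in MolfB6 2, the library with the least T in TPM, to 25.0 TPM in MolfB6 1. In TMM-scaled log2 CPM the libraries farthest from the median of T were PwkB6 6, at 4.62 the lowest of the 16, and SpretB6 6, at 6.46 the highest. Without them its r was 0.91. That of the second fell to 0.64.

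For Klf4 they were ENSMUST00000152247.8, with r = 0.89 and a Spearman correlation of 0.82, and ENSMUST00000167458.9, with r = 0.88 and a Spearman correlation of 0.88. The first stood at 1.67 TPM in PwkB6 6 and at 0.0478 TPM in SpretB6 1, the libraries with the most and the least Klf4. Without these 2 libraries its r was 0.74 and that of the second 0.85. No gene names were available for these 4 IDs in the tables used here. Whether any of them belongs to T or Klf4, or shares divided reads with them, was not tested. T and Klf4 themselves had an r of -0.0099 over the 16 libraries on this scale.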

How the data were processed

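Bulk RNA-seq of 16 libraries was used, with 1 table of transcripts per library. Per the file headers, the deposited tables hold transcript length, effective length, TPM and estimated counts. The TPM values deposited by the authors are scaled for length to a fixed sum per library, and the estimated counts deposited by the authors need not be whole, because reads matching several transcripts are divided. Salmon, DESeq2 and mm10 appear in the submitters' processing notes. Versions, the transcript release and strand settings are not given in the sources used. How reads with variants of the wild-derived parent were matched is not stated, and any loss of them was not measured.

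After rounding, the estimated counts were tested with edgeR 4.0.16 (R 4.3.3). filterByExpr (minimum count 10, minimum total 15) kept 56721 transcripts, both members among them. TMM scaling and 1 quasi-likelihood model of all 16 libraries gave 1 joint test and 6 pair tests, each adjusted over all tested transcripts (Benjamini-Hochberg, threshold 0.05). Standard errors and 95% intervals follow from each fold change with its F value. The alternatives used DESeq2 1.42.0 and limma 3.58.1, other filters and scalings, log2 TPM, the library number as a block, and each library left out. Log2 CPM used a prior count of 2 and log2 TPM a pseudocount of 0.1. Ratios and correlations were tested by exact permutation. The scripts were tested on simulated data.

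Total estimated counts of 42596559 to 72364991 per library set the counting error, given as exact 95% Poisson intervals of a transcript's reads, which cover counting error only. The rule for named transcripts took T, Klf4 and, for each, the 2 most correlated transcripts. Members and lists were chosen with earlier results of these data known. Lists of naive, primed, primitive streak, neural and fibroblast markers were drawn up by symbol. In the RefSeq annotation used (GRCm38.p6), 0 genes carry an Ensembl ID, so none of these lists was used. The labelled cell type was therefore not checked, and T and Klf4 alone cannot establish it. No sequence of either gene was available here, and none is shown.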

Additional observations from a re-analysis of the deposited data

Results flagged for a closer look

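In CastB6 3 the ratio of T to Klf4 TPM was 69.46, against 20.9 to 26.0 in the other 3 CastB6 libraries, and it was singled out because its gap to them takes up nearly the whole range of the cross. Among the 12 groups of 4 libraries examined (T, Klf4 and their ratio in each cross) it was the only such library. Chance alone marks about 1 in 20 groups of normally distributed values, which ratios need not be. T was 33.1 TPM and Klf4 0.476 TPM in CastB6 3, with 64.0 Klf4 reads, and neither value alone stood apart by the same measure. The measure was taken on the ratio itself and was not applied in log2. In log2 the ratio was 6.12 against 4.39 to 4.70 in the other 3 libraries, a gap that takes a smaller part of the range.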

How the results depend on the processing

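None of the 25 other settings brought T or Klf4 past the adjusted threshold in any test run. The 5 CPM filter left Klf4 out, so it gave values for T only. Of 294 alternative log2 fold changes of a pair, 19 had the other sign, 17 of T and 2 of Klf4, all from pairs not called. T in CastB6 against MolfB6, near 0, became -0.10 with library totals only, -0.073 with the 5 CPM filter, -0.069 with limma on log2(TPM + 0.1), -0.068 with limma on log2(TPM + 1) and -0.14 with the replicate block. T in MolfB6 against SpretB6 became 0.039 with the block, and Klf4 in MolfB6 against PwkB6 became 0.013 with limma voom.

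With 1 library left out, T ranged from -0.15 to 0.20 in CastB6 against MolfB6, from -0.39 to 0.25 in CastB6 against SpretB6, from -0.38 to 0.25 in MolfB6 against SpretB6 and from -0.61 to 0.032 in PwkB6 against SpretB6. The positive ends of the last 3 are without SpretB6 6. Klf4 in MolfB6 against PwkB6 ranged from -0.47 to 0.19, and the log2 ratio of T to Klf4 in that pair from -0.25 to 0.65, with PwkB6 6 setting the sign in both. The SD of log2 TPM of T ranged from 0.20 to 0.50 in CastB6 (lowest without library 5) and from 0.30 to 0.69 in MolfB6 (lowest without library 2). That of Klf4 ranged from 0.14 to 0.26 in MolfB6 (lowest without library 3) and from 0.15 to 0.71 in SpretB6 (lowest without library 1). In log2 CPM the SD of Klf4 in MolfB6 was 0.12 instead of 0.21.

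The counts of called transcripts behind the background shares depend on the tool. The joint test called 5519 of 56721 tested transcripts, and 11022 of 56540 with DESeq2, which tested 56541 in each pair. In the main fit CastB6 gave 1564 with MolfB6, 2134 with PwkB6 and 3430 with SpretB6. MolfB6 gave 682 with PwkB6, and SpretB6 gave 3137 with MolfB6 and 3121 with PwkB6. For the pairs, DESeq2 called 3817 in CastB6 against MolfB6, 5679 in CastB6 against PwkB6, 6256 in CastB6 against SpretB6, 2459 in MolfB6 against PwkB6, 5606 in MolfB6 against SpretB6 and 5975 in PwkB6 against SpretB6. With only the 2 crosses in the fit, CastB6 against PwkB6 gave 658 of 49843. MolfB6 against PwkB6 gave 372 of 50451 and PwkB6 against SpretB6 1980 of 50087. CastB6 against PwkB6 gave 1403 of 94417 with no filter, and MolfB6 against PwkB6 gave 1090 of 56721 with limma on log2(TPM + 1). With 1 library left out, 58567 to 59083 transcripts were tested. CastB6 against MolfB6 then gave 871 to 2123, CastB6 against PwkB6 1060 to 3380 and MolfB6 against PwkB6 437 to 990.

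The labels do not say what libraries of equal number share. Their deviations from the cross means correlated by a median of -0.020 (21 pairs, 1 of them above 0.1). Pairs of unequal number gave a median of 0.0065 (75 pairs, 5 of them above 0.1). Of 15 libraries, 5 correlated best with one of their own number. Whether a number also marks a shared batch cannot be told from these values. With the replicate block the joint test called 3581 transcripts, and the pairs CastB6 against MolfB6 797, CastB6 against PwkB6 1360, MolfB6 against PwkB6 304 and MolfB6 against SpretB6 1717. With the block the adjusted joint p was 0.896 for T and 0.424 for Klf4. Paired differences of the log2 ratio of T to Klf4 gave an adjusted p of 0.75 in all 6 pairs, and 3 or 4 pairs of numbers could not pass the threshold. The cause of these changes was not tested.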
